A study of Mus musculus with 12 samples.

Results

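The Hox genes of the mouse were examined in tumours made by either of 2 routes to the EWSR1-ATF1 fusion, the oncogene of clear cell sarcoma, and in 1 skeletal muscle. Members were the rows of the deposited count table whose Ensembl identifier maps to a protein-coding symbol of the form Hoxa, Hoxb, Hoxc or Hoxd followed by a number, which took 39 of 55536 genes. They comprise 11 Hoxa, 10 Hoxb, 9 Hoxc and 9 Hoxd genes. The choice used no measured value.

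Total RNA was sequenced after depletion of ribosomal RNA from 5 translocation tumours, 6 Rosa26 tumours and 1 muscle library. The translocation tumours carried HprtCre with loxP sites in Ewsr1 and Atf1, so that Cre can join the endogenous loci. The Rosa26 tumours carried Rosa26-LSL-EWSR1-ATF1, in which a stop cassette is removed by Cre to express the fusion from the Rosa26 locus. The muscle was wild type. HprtCre puts the recombinase under a gene active in most cells. The Cre source of the Rosa26 tumours, the ages, and the anatomical site of each tumour and of the muscle are not stated in the labels. No drug was given, and tumours were frozen when the primary tumour made the animal ill. Translocation tumours 2 and 5 have titles with the same leading number, as do translocation tumour 1 and the muscle, and the titles of Rosa26 tumours 5 and 6 differ only in the last digit. Whether such libraries came from the same animal is not stated, so each p-value reflects only the variation among these libraries, part of which may be technical.

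Hox genes encode homeodomain transcription factors that tell embryonic cells where they lie along the head-to-tail axis and along the limb. Their order on the chromosome follows the order of their expression domains, and genes of the same number in different clusters, called paralogs, have similar roles. Low numbers are used towards the head, middle numbers in the trunk, and high numbers in the tail, the distal limb and the genital region. Fibroblasts and muscle of the adult keep much of the Hox pattern of the place where they formed.

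The clusters are compact on build mm10. Hoxa covered 105.3 kb at chr6:52155590-52260880 and Hoxb 173.9 kb at chr11:96194316-96368256. Hoxc covered 115.8 kb at chr15:102921103-103036852 and Hoxd 96.8 kb at chr2:74668310-74765142. Atf1 lies on the chromosome of the Hoxc cluster, 2.66 Mb from it, and Ewsr1 on that of the Hoxb cluster, 91.1 Mb from it.

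Promoters of 3 genes show the sequence context of the most unequal patterns below, and were chosen after the values were seen. Hoxd8 was the only Hox gene at 1 CPM (reads scaled to a common library size) or more in all 11 tumours, Hoxd13 was high in 1 tumour, and Hoxa11 had 1 count in all translocation tumours together. Each sequence gives the 250 bases before the RefSeq start on GRCm38.p6, 5′ to 3′ on the gene's own strand. The windows are chr2:74704365-74704614 on the plus strand for Hoxd8, chr2:74667975-74668224 on the plus strand for Hoxd13 and chr6:52245811-52246060 on the minus strand for Hoxa11. Capitals mark the core site of the cAMP response element bound by the ATF1 family, TGACG or its reverse complement CGTCA, and the CCAAT box, CCAAT or ATTGG.
Hoxd8: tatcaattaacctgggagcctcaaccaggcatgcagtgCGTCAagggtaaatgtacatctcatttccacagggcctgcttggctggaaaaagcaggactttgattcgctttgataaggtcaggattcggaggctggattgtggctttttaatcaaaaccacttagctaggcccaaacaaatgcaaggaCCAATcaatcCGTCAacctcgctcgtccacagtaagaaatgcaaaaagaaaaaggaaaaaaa
Hoxd13: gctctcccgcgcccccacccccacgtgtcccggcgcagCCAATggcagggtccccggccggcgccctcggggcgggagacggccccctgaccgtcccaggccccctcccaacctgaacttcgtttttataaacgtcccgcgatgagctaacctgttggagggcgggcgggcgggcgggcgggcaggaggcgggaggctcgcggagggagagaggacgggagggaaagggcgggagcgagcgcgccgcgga
Hoxa11: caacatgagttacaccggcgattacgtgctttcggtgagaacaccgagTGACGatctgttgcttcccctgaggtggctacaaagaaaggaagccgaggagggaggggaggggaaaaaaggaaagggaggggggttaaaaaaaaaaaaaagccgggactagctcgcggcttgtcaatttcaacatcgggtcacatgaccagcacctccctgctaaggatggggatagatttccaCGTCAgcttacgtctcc
The Hoxd8 window held core sites beginning 212 and 52 bases before the start and a CCAAT box at 62. In the Hoxd13 window a CCAAT box began 212 bases before the start, and the Hoxa11 window held core sites at 202 and 17. Hoxd13 had 31 CpG dinucleotides in its window, Hoxa11 13 and Hoxd8 6, against a median of 6 over all promoters in the table. Of the 39 genes, 22 matched the promoter table, with 24 windows. The full palindrome TGACGTCA was in none of these windows, and in 1.55% of all 32851 promoters. A core site was found in 7 of the 24 Hox windows and in 17.8% of all promoters, and a CCAAT box in 14 of the 24 and in 33.9%. Both strands were searched, and a full palindrome also counts as a core site. A match describes the letters and was not tested as a binding site.

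Libraries differed in depth and in content before any Hox gene was considered. Totals ran from 2963088 counts in translocation tumour 2 to 25037628 in muscle, and a count of 0 allowed up to 1.31 CPM in translocation tumour 2, 0.524 CPM in Rosa26 tumour 4 and 0.115 to 0.293 CPM elsewhere (3 counts, counting error only). Levels are CPM scaled by TMM over the 12 libraries. Markers of skeletal muscle took 18.2% of the counts in muscle, 8.02% in Rosa26 tumour 1, 0.476% in translocation tumour 2, 0.475% in Rosa26 tumour 3 and at most 0.0191% in each other tumour. All 10 muscle markers were tested between genotypes and none was called, beside 2.70% of all genes tested. Their sums were 5.28 to 6172 CPM in translocation tumours and 12.9 to 67600 in Rosa26 tumours. Translocation tumour 5 had the lowest sum of the 5 fibroblast markers, 206.0 CPM against 1823 to 21790 in the other translocation tumours, and the highest sum of the 7 melanocyte markers, 464 CPM against 9.70 to 54.8 in the other tumours. That melanocyte sum came from Dct at 299.9 CPM and Mitf at 162.9, while Pmel was at 0.837 CPM, Sox10 at 0.0929 and Tyr, Tyrp1 and Mlana at 0.

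The summed level of the 39 genes varied more among translocation tumours than among Rosa26 tumours. In translocation tumours 1 to 5 it was 168.9, 273.0, 2.19, 243.6 and 77.1 CPM. The Rosa26 tumours ran from 130.5 to 258.7 with a median of 144.5 CPM, and muscle was at 270.2 CPM. The ranges overlapped, with translocation tumours 3 and 5 below all Rosa26 tumours and translocation tumour 2 above them. Translocation tumour 3 held 54 Hox counts among 19914053, and 32 of the 39 genes were at 0 there. Of those counts 34 were from Hoxd8, a trunk-level gene of the Hoxd cluster, and 10 from Hoxd4, while every Hoxa and Hoxc gene was at 0, which allows at most 0.122 CPM each. In bulk RNA, fewer cells of a type and less RNA per cell cannot be told apart.

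**Figure D1:**
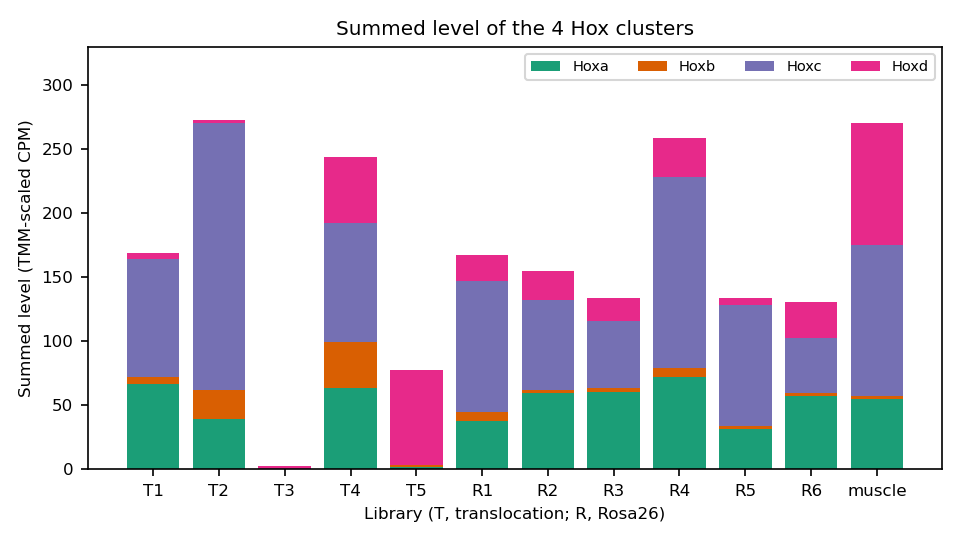
Summed level of each Hox cluster in TMM-scaled CPM (vertical axis) in 5 translocation tumours (T), 6 Rosa26 tumours (R) and 1 muscle library, stacked by cluster. The bar of translocation tumour 3 is near the axis at 2.19 CPM, that of translocation tumour 5 is almost all Hoxd, and the 6 Rosa26 bars have Hoxa and Hoxc as their main parts.

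At a detection level of 1 CPM, 17, 16, 1, 25 and 6 Hox genes were detected in translocation tumours 1 to 5. In the Rosa26 tumours the number ran from 11 to 23 with a median of 17.5, and muscle had 18. Translocation tumours 3 and 5 were thus below every Rosa26 tumour and translocation tumour 4 above every one. The Hox profile also differed more between translocation tumours than between Rosa26 tumours, mostly in the pairs that include translocation tumour 3 or 5. Over the 39 genes, the correlation of log2(CPM + 0.5) between 2 libraries had a median of 0.21 over the 10 pairs of translocation tumours, with a range of -0.182 to 0.888. It had a median of 0.909 over the 15 pairs of Rosa26 tumours, with a range of 0.839 to 0.968. Over the 17021 genes tested, the same medians were 0.824 and 0.897. Between genotypes the median over 30 pairs was 0.699 for the Hox genes and 0.829 for all genes tested. Among translocation tumours 1, 2 and 4 the Hox correlations were 0.771 to 0.888, while each pair with tumour 3 or 5 was at 0.485 or less. Translocation tumours 3 and 4 had the highest all-gene correlation of their group, 0.92, and a Hox correlation of 0.344. Correlations describe these libraries, since Hox genes are not independent of each other, many values are near 0 and depth differs.

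The spread of single genes gave the same order. The median SD of log2(CPM + 0.5) over the 22 Hox genes that passed the filter on low counts was 1.82 in translocation tumours and 0.715 in Rosa26 tumours, and over all genes tested it was 0.740 and 0.507. No test was made of this difference in spread.

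**Figure D2:**
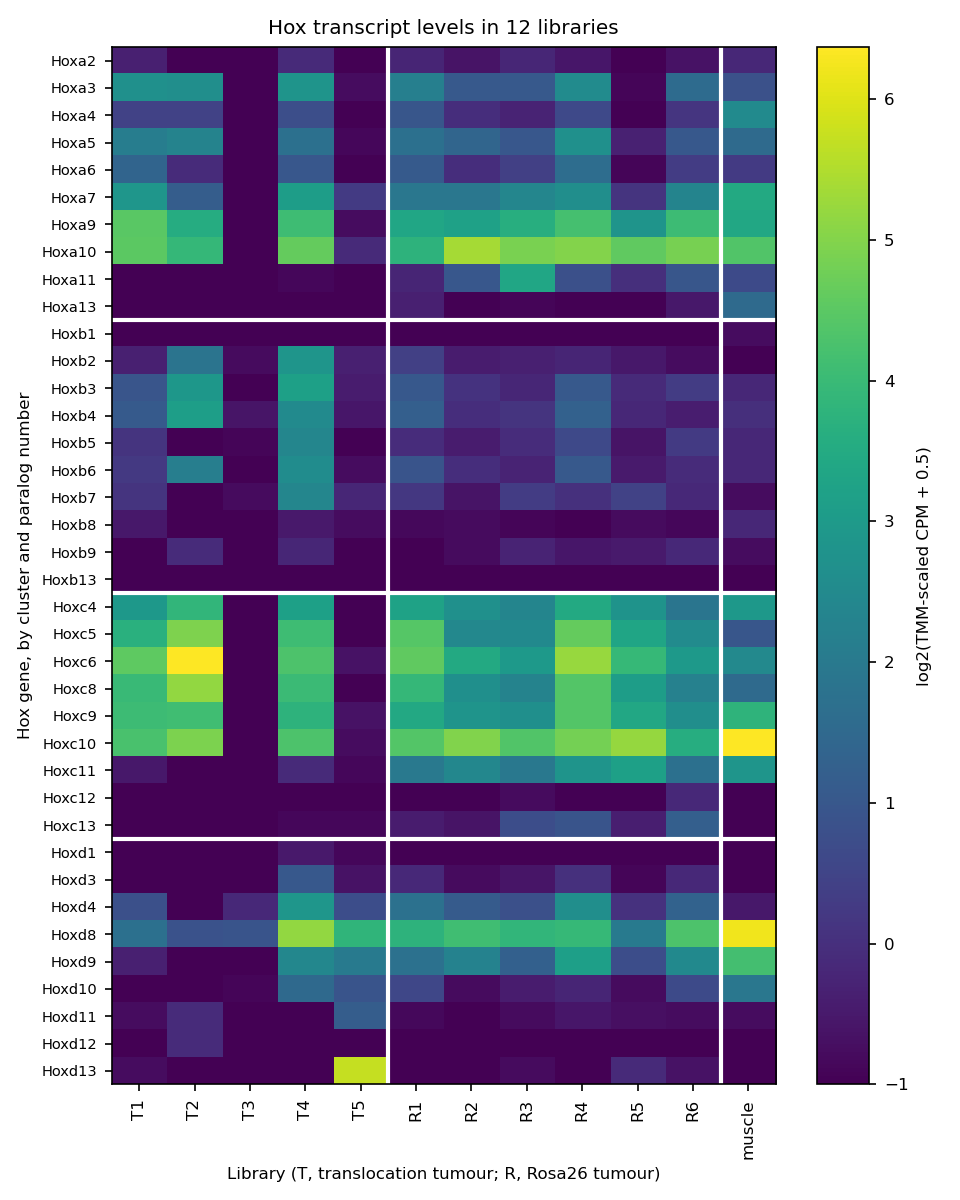
Level of each Hox gene reported here as log2(TMM-scaled CPM + 0.5) (colour), with genes in rows by cluster and paralog number and libraries in columns (T, translocation tumour; R, Rosa26 tumour). The column of translocation tumour 3 is dark apart from Hoxd8, translocation tumour 5 has its brightest cell at Hoxd13, and the Rosa26 columns share bright cells from Hoxc4 to Hoxc11 and at Hoxa9 and Hoxa10.

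The clusters were used in different proportions. Per kilobase of exon, the leading genes were Hoxc10 in translocation tumour 1, Hoxc6 in translocation tumour 2, Hoxd8 in translocation tumours 3 and 4, and Hoxd13 in translocation tumour 5. In the Rosa26 tumours Hoxc10 led in 4, Hoxc6 in tumour 4 and Hoxa10 in tumour 6, and Hoxc10 led in muscle. The share of the summed level per kilobase held by the Hoxc cluster was 61.5%, 80.6%, 0%, 42.1% and 0.674% in translocation tumours 1 to 5. In Rosa26 tumours it ran from 39.1% to 77.2% with a median of 57.5%, and in muscle it was 50.4%. Hoxd held 2.63%, 0.721%, 81.2%, 21.3% and 95.7% in translocation tumours 1 to 5, 4.23% to 23.1% in Rosa26 tumours and 32.2% in muscle. Hoxc was thus the largest cluster in translocation tumours 1, 2 and 4, in every Rosa26 tumour and in muscle, and Hoxd in translocation tumours 3 and 5, the former on 54 counts.

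By position along the clusters, groups 9 to 13, the posterior genes, held 44.2%, 28%, 2.74%, 33.1% and 78.8% of the level per kilobase in translocation tumours 1 to 5. In Rosa26 tumours they held from 38.2% to 67.5% with a median of 59.3%, and in muscle 62.0%. Translocation tumours 2, 3 and 4 were below every Rosa26 tumour and translocation tumour 5 above every one. Groups 4 to 8 held most of the rest, and groups 1 to 3 held 1.22% to 7.21% in translocation tumours, 0.497% to 2.93% in Rosa26 tumours and 0.529% in muscle. In reads, the posterior share in translocation tumour 3 was 1.85% of 54 counts (95% Wilson interval 0.328% to 9.77%), and the other libraries had 624 to 4704 Hox counts.

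The highest paralog number detected in a cluster was compared next. In the Hoxa cluster it was 10 in translocation tumours 1, 2 and 4 and none in tumours 3 and 5, while in the Rosa26 tumours it was 10 in tumours 1 and 5 and 11 in the other 4. Among Hoxc genes it was again 10 in translocation tumours 1, 2 and 4 and none in tumours 3 and 5, and it was 11 or 13 in every Rosa26 tumour, each in 3 of them. Hoxd genes were detected up to number 8 in translocation tumours 1, 2 and 3, to 10 in tumour 4 and to 13 in tumour 5, and up to 9 in Rosa26 tumours 1 to 5 and 10 in tumour 6. In muscle the limit was 13 for Hoxa, 11 for Hoxc and 10 for Hoxd. With detection at 0.5 CPM 9 of the 48 limits changed, at 2 CPM 14 of 48, and with DESeq2 size factors none.

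Between genotypes, 22 of the 39 Hox genes could be tested and 17 had too few counts. The 17 were Hoxa2, Hoxa11, Hoxa13, Hoxb1, Hoxb2, Hoxb5, Hoxb8, Hoxb9, Hoxb13, Hoxc12, Hoxc13, Hoxd1, Hoxd3, Hoxd10, Hoxd11, Hoxd12 and Hoxd13. Hoxa2, Hoxb8 and Hoxb9 stayed under 1 CPM in every library. Of the 22, 1 was called at an adjusted p under 0.05 by edgeR, lower in translocation tumours, where 1.56% of all 17021 genes tested were called lower, and none was called higher, where the background was 1.14%. Beside these, 2.70% of genes were called in either direction, and a count of 1 does not set the family apart. No other Hox gene reached an unadjusted p under 0.05 in edgeR. The log2 fold change, translocation over Rosa26 throughout, was positive for 9 and negative for 13 of the 22, with a median of -0.08 against 0.07 over all genes tested. The median standard error was 1.09 against 0.457 over all genes.

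**Figure D3:**
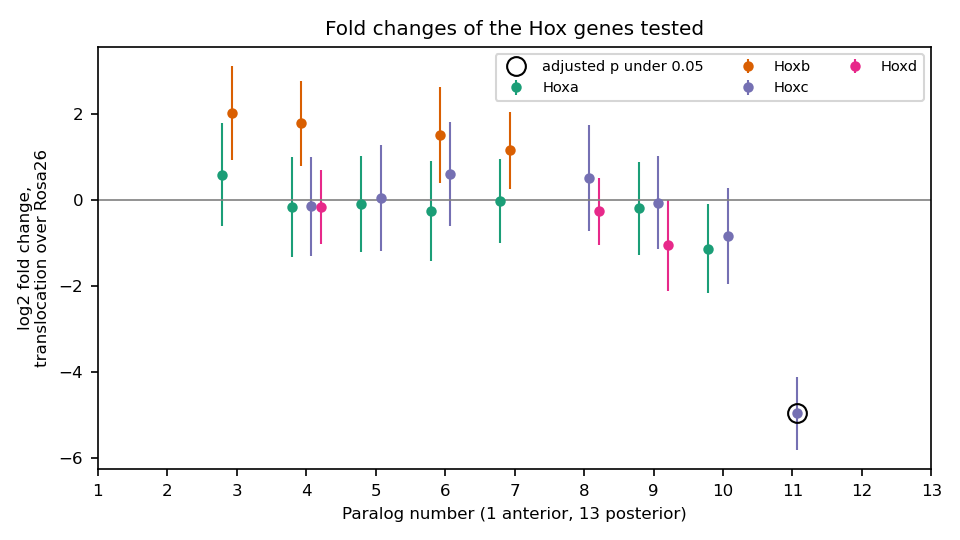
Log2 fold change of the tested Hox genes reported here, translocation over Rosa26 (vertical axis, with standard error bars from edgeR), by paralog number and coloured by cluster. Hoxc11, ringed, is at -4.96, the 4 tested Hoxb genes lie above 0 without passing the test, and most other bars cross 0.

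The called gene was Hoxc11, a posterior gene of the hindlimb and lumbosacral region. In translocation tumours 1 to 5 it measured 0.192, 0, 0, 0.414 and 0.0465 CPM. In the Rosa26 tumours it ran from 2.80 to 8.54 with a median of 4.14 CPM, and in muscle it was 6.73 CPM. Every Rosa26 tumour was above every translocation tumour, also where a count of 0 in translocation tumour 2 allows 1.31 CPM. Hoxc11 was lower in translocation tumours at -4.96 ± 0.85 on the log2 scale (SE; adjusted p = 0.0171 by edgeR, 5 against 6 tumours). It passed the test in all 11 fits that left out a tumour, with log2 fold changes of -6.17 to -4.56. The adjusted p over all 19 alternatives reached at most 0.0492. Without Rosa26 tumour 1, whose muscle marker share stood out, the values in the other 5 Rosa26 tumours were still 2.80 CPM or more.

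Other Hoxc genes gave the boundary around it. Hoxc6, a gene of the thorax and forelimb, measured 22.8, 82.3, 0, 19.4 and 0.139 CPM in translocation tumours 1 to 5 and 7.43 to 37.2 CPM in Rosa26 tumours, with overlap and a log2 fold change of 0.60 ± 1.22 (adjusted p = 0.80, edgeR). Hoxc8 patterns the thorax, and in translocation tumours 1 to 5 it measured 15.4, 35.9, 0, 15.7 and 0 CPM against 4.18 to 20.8 CPM in Rosa26 tumours, with a median of 6.997. Hoxc9 measured 16.1, 16.6, 0, 13.2 and 0.139 CPM against 5.75 to 20.5 CPM, with a median of 8.31. Hoxc10, used at lumbar levels and in the hindlimb, measured 18.6, 29.8, 0, 19.3 and 0.0929 CPM against 11.5 to 36.3 CPM, with a median of 24.2. Thus in translocation tumours 1, 2 and 4 these 3 genes lay at or above the lower end of the Rosa26 range, while the next gene, Hoxc11, was at or near 0. In Rosa26 tumours Hoxc11 was at 2.80 to 8.54 CPM beside Hoxc10 at 11.5 to 36.3 CPM. For Hoxc10 the log2 fold change was -0.84 ± 1.11 (adjusted p = 0.682, edgeR), and muscle held 82.0 CPM of it.

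Beyond Hoxc11, Hoxc12 was at 0 in all translocation tumours (0 of their counts). It had 10 counts over the Rosa26 tumours, in tumours 3 and 6. Set against a floor of 3 counts over the translocation group, that is 2.44-fold per library size. This ratio takes the 10 counts as exact and leaves out the spread between tumours, so it is no lower limit. Hoxc13, needed for hair and nails, measured 0, 0, 0, 0.0518 and 0.0465 CPM in translocation tumours 1 to 5. The Rosa26 values ran from 0.158 to 1.87 with a median of 0.726 CPM, and muscle had none. Every observed Rosa26 value was above every translocation value, but a 0 in translocation tumour 2 or tumour 1 allows more than the lowest Rosa26 value. The counts were 2 against 88, a ratio per library size of 32.3 (95% counting interval 8.67 to 270.5). That interval pools the reads of each group and leaves out the spread between tumours. Rosa26 tumours 3 and 6 gave 29 and 38 of the 88 counts. Without each Rosa26 tumour in turn the ratio was 22.65 to 39.31, in alternatives added after the values were seen. Hoxc13 was too low for the test as designed; it passed with no filter (adjusted p = 0.0493) and with muscle kept in the fit (adjusted p = 0.0472), both in edgeR.

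In the Hoxa cluster the limit of translocation tumours 1, 2 and 4 was also 10. It was 10 in Rosa26 tumours 1 and 5 as well, and 11 in Rosa26 tumours 2, 3, 4 and 6. Hoxa9, used in posterior trunk and in blood progenitors, had a log2 fold change of -0.20 ± 1.08 (adjusted p = 0.932, edgeR). Hoxa10, a gene of the lumbar spine, the thigh and the uterus, measured 22.4, 14.4, 0, 24.2 and 0.418 CPM in translocation tumours 1 to 5. Rosa26 tumours had 13.2 to 40.7 CPM, with a median of 28.8, and muscle had 20.1 CPM. The groups overlapped, with translocation tumours 3 and 5 far below the rest, and the log2 fold change was -1.14 ± 1.03 (adjusted p = 0.528, edgeR).

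Hoxa11, which shapes the forearm and shank, was singled out after its values were seen. It measured 0, 0, 0, 0.0518 and 0 CPM in translocation tumours 1 to 5. Among Rosa26 tumours it ran from 0.347 to 9.72 with a median of 1.35 CPM, and muscle held 1.07 CPM. Each observed Rosa26 value was above each translocation value, although the 0 in translocation tumour 2 allows up to 1.31 CPM, which is above 3 of the Rosa26 tumours. Counts were 1 against 313, a ratio per library size of 229 (95% counting interval 40.9 to 9091). Rosa26 tumour 3 gave 238 of the 313, and without it the ratio was 71.4 (12.4 to 2856), an alternative added after the values were seen. The filter removed it from the test, and it passed with no filter (adjusted p = 0.022), with muscle kept in the fit (0.0293) and without translocation tumour 2 (0.0401), 3 (0.0451) or 5 (0.0364), all in edgeR. These were 5 of the 9 alternatives in which it could be tested, and the highest adjusted p among the others was 0.0708 in edgeR. Its exons share 35.0% of their bases with the antisense gene Hoxa11os, and the strand setting of the counting is not given.

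Of the 39 genes, 3 had groups that did not overlap, Hoxa11, Hoxc11 and Hoxc13, all lower in translocation tumours. Among genes at 1 CPM or more in any library, 2.86% did so in that direction and 1.91% in the other, and 31 Hox genes met that level. Of the 22 tested, 1 had lower groups without overlap, beside 3.12% of all genes tested, and none higher ones, beside 2.20%. Among the tumours all 3 reached that level in the Rosa26 group alone, so the count is a description.

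**Figure D4:**
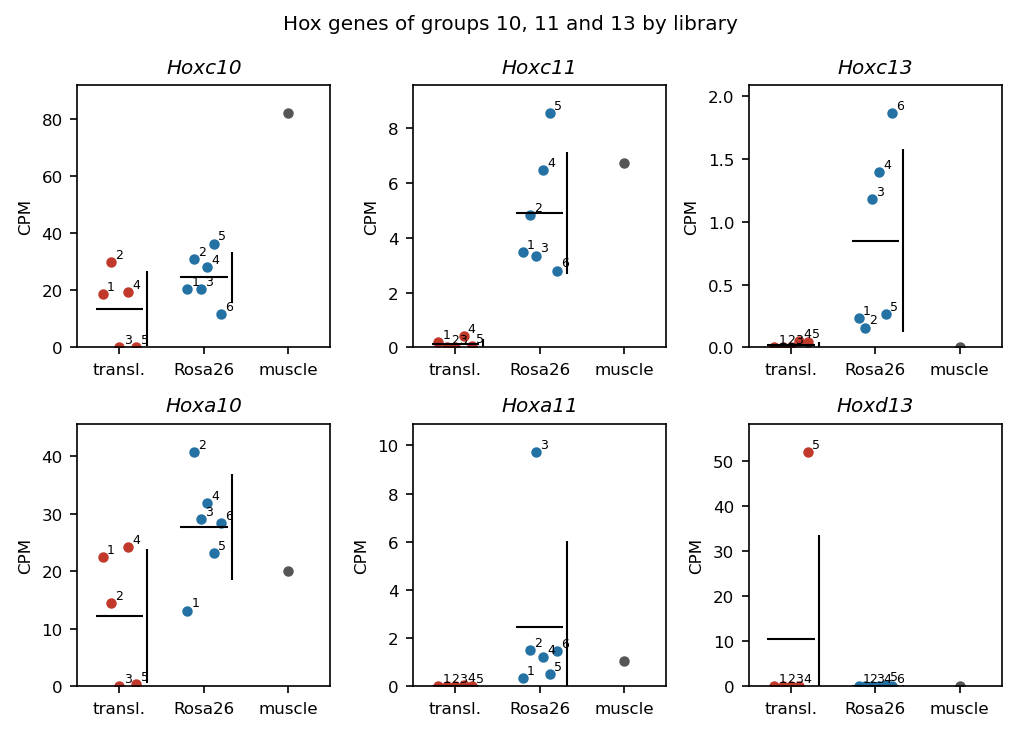
Level in TMM-scaled CPM (vertical axis) of 6 posterior Hox genes in each translocation tumour, Rosa26 tumour and the muscle library, numbered by replicate, with group means (horizontal lines) and SD (vertical lines, stopped at 0). Hoxc11, Hoxc13 and Hoxa11 are at or near 0 in all 5 translocation tumours, Hoxc10 and Hoxa10 are near 0 in translocation tumours 3 and 5, and Hoxd13 stands at 51.9 in translocation tumour 5.

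The Hoxd cluster went the other way in a single tumour. Hoxd13, the last gene of the cluster, which patterns digits and the genital bud, measured 0.0959, 0, 0, 0 and 51.9 CPM in translocation tumours 1 to 5. The Rosa26 tumours had 0 to 0.421 CPM with a median of 0.0408, and muscle had none. Its 1117 counts in translocation tumour 5 made up most of the 1659 Hox counts of that library. Translocation tumour 5 also held 1.77 CPM of Hoxd11, against at most 0.438 in the other tumours. Hoxd12, between them, was at 0 in that tumour, which allows 0.139 CPM. Outside the clusters, the neighbour of Hoxd13, Evx2, was at 0.325 CPM in translocation tumour 5, on 7 counts. In the other tumours Evx2 was at 0.0817 CPM or less. The neighbour of Hoxa13, Evx1, was at 7.90 CPM in translocation tumour 5, where Hoxa13 itself was at 0. Evx1 was at 0 in the other translocation tumours, with 0.163 to 0.540 CPM in Rosa26 tumours. Translocation tumour 2, whose title shares its leading number with tumour 5, had Hoxd13 at 0 and Hoxc genes summing to 208.7 CPM, against 0.465 CPM in tumour 5. Hoxd13 gave no call with no filter or with muscle kept in the fit (the lowest adjusted p was 0.105 over these 2 fits, edgeR). The low fibroblast marker sum and the high Dct and Mitf levels of tumour 5, given above, move with this pattern, and their part in it was not tested.

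Hoxd8 was the most widely detected member. In translocation tumours 1 to 5 it measured 2.78, 1.31, 1.38, 35.4 and 13.7 CPM. In Rosa26 tumours it ran from 3.64 to 19.2 with a median of 14.4 CPM, and in muscle it was 73.9 CPM. The groups overlapped, the value of translocation tumour 2 rested on 3 counts, and the log2 fold change was -0.27 ± 0.78 (adjusted p = 0.866, edgeR). Hoxd9 had a log2 fold change of -1.06 ± 1.05 (adjusted p = 0.566) and Hoxd4 one of -0.16 ± 0.86 (adjusted p = 0.929), both by edgeR. Exons of Hoxd4 and Hoxd3 overlap on the same strand over 52.3% and 62.3% of their bases, so their reads may be split between them. Hoxd10 passed 1 CPM in translocation tumours 4 and 5, Rosa26 tumour 6 and muscle, at 2.38, 1.39, 1.08 and 3.32 CPM. Hoxd1, of the hindbrain level, had 5 counts in all translocation tumours and 0 in all Rosa26 tumours.

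The Hoxb cluster was the lowest in every Rosa26 tumour, in muscle and in translocation tumour 4. Its sum was 5.37, 22.8, 0.365, 36.1 and 1.26 CPM in translocation tumours 1 to 5. Across Rosa26 tumours it ran from 2.29 to 7.17 with a median of 3.07 CPM, and in muscle it was 2.34 CPM. Translocation tumours 2 and 4 lay above every Rosa26 tumour, and tumours 3 and 5 below every one. The genes of groups 2 to 7 made up most of it. Hoxb2, a regulator of the hindbrain, measured 0.288, 3.06, 0.0812, 6.63 and 0.279 CPM in translocation tumours 1 to 5, and 0.0982 to 0.809 CPM in Rosa26 tumours with a median of 0.261. Hoxb4, of the neck level and known for its part in blood stem cells, measured 1.63, 8.31, 0.162, 5.28 and 0.186 CPM against 0.246 to 1.92 CPM, with a median of 0.522. Both genes were above all Rosa26 tumours in translocation tumours 2 and 4 and at no more than the highest Rosa26 values in the other translocation tumours.

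Hoxb3, Hoxb4, Hoxb6 and Hoxb7 were the 4 Hoxb genes tested, and none was called. Their log2 fold changes were 1.15 to 2.02 and their adjusted p at least 0.272 in edgeR. Hoxb3 was at 2.02 ± 1.09, but 52.9% of its exon bases lie opposite the antisense gene Hoxb3os. Hoxb7 was at 1.15 ± 0.90 (adjusted p = 0.455) and turned to -0.89 when translocation tumour 4 was left out, which alone held 4.71 CPM. Hoxb1 and Hoxb13, at the ends of the cluster, were at 0 in all 11 tumours. Hoxb13 was also at 0 in muscle, where Hoxb1 had a level of 0.0976 CPM.

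Hoxa genes of low number varied among Rosa26 tumours too. Hoxa3, of the hindbrain and pharynx, measured 6.04, 5.69, 0, 6.58 and 0.0929 CPM in translocation tumours 1 to 5, and 0.0383 to 5.42 CPM in Rosa26 tumours with a median of 2.02. The lowest Rosa26 value was that of tumour 5, where Hoxa4 was at 0, Hoxa5 at 0.306 and Hoxa6 at 0.0383 CPM. The other 5 Rosa26 tumours had at least 1.58 CPM of Hoxa3 and 1.51 CPM of Hoxa5. Rosa26 tumour 5 nevertheless held 23.1 CPM of Hoxa10 and 6.47 CPM of Hoxa9, its lowest-numbered Hoxa gene at 1 CPM, while its Hoxc4 to Hoxc6 levels lay within the range of the other Rosa26 tumours. Rosa26 tumour 6, with the adjoining title number, had 2.46 CPM of Hoxa3. Log2 fold changes of Hoxa3 to Hoxa7, Hoxc4, Hoxc5, Hoxc8 and Hoxc9 lay between -0.26 and 0.58 with adjusted p of at least 0.80 in edgeR.

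In the tumours, group 13 genes stayed under 1 CPM apart from Hoxd13 in translocation tumour 5 and Hoxc13 in some Rosa26 tumours. Hoxc13 was at 1.18, 1.40 and 1.87 CPM in Rosa26 tumours 3, 4 and 6. Hoxa13, which with Hoxd13 specifies hand and foot, was at 0 in all translocation tumours. In Rosa26 tumours 1 to 6 it was at 0.289, 0, 0.0408, 0, 0 and 0.197 CPM, a total of 10 counts. Set against a floor of 3 counts over the translocation group, that is 2.44-fold per library size. The ratio again takes the 10 counts as exact, without the spread between tumours, and is no lower limit. Muscle held 2.44 CPM, and Rosa26 tumour 1, with the highest muscle marker share of the tumours, had the highest tumour value. The part of muscle RNA in that value was not tested. Hoxb13, of the tail, prostate and colon, was at 0 in every library. No tumour therefore had more than 0.289 CPM of Hoxa13, and Hoxd13 passed 1 CPM in translocation tumour 5 alone.

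The single muscle library allows no test. It was at least 2-fold above every tumour, on the scale of log2(CPM + 0.5), for 5 of the 31 Hox genes at 1 CPM, beside 9.87% of all 20538 genes at that level, and 2-fold below every tumour for none, beside 7.16%. Those 5 were Hoxa4 at 5.27 CPM, Hoxa13 at 2.44, Hoxc10 at 82.0, Hoxd8 at 73.9 and Hoxd9 at 17.6 CPM. They were the same 5 with DESeq2 size factors. The highest tumours had 1.44 CPM of Hoxa4, 36.3 of Hoxc10, 35.4 of Hoxd8 and 8.39 of Hoxd9. Muscle thus held posterior Hoxa, Hoxc and Hoxd transcripts with 2.34 CPM of Hoxb in all, while Hoxc6 was 5.07 CPM there and 7.43 to 37.2 CPM in Rosa26 tumours. The TMM factor of this library was 0.409 against 0.771 to 1.26 in the tumours, so levels set against tumours carry that scaling.

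Genes around the clusters were measured beside them. Of 24 protein-coding genes, 3 on each side of each cluster, 20 were tested and none was called (the lowest adjusted p was 0.0582, edgeR). In translocation tumour 3, where Hoxc genes were at 0, the neighbours Cbx5 and Hnrnpa1 were at 94.9 and 64.4 CPM, against 77.5 to 258 and 63.4 to 465 CPM in the other translocation tumours. Of 46 other annotated genes inside the clusters, most of them noncoding, 6 were tested and none was called, with a median log2 fold change of 0.83 against 0.07 over all genes. Hotairm1, a noncoding RNA of the anterior Hoxa cluster, measured 9.59, 2.63, 0.122, 3.83 and 0.744 CPM in translocation tumours 1 to 5 and 0.191 to 2.21 CPM in Rosa26 tumours, with overlap and a log2 fold change of 1.65 ± 0.87 (adjusted p = 0.263, edgeR). Hotair, a noncoding RNA of the posterior Hoxc cluster, had at most 0.0518 CPM in a translocation tumour and 0.0789 to 2.45 CPM in Rosa26 tumours. Rosa26 tumours 2 and 4 had 1 count each and tumour 5 had 64. The zeros of translocation tumours 1 and 2 allow 0.288 and 1.31 CPM, above some of the Rosa26 values. Hotair was filtered from the test, and its adjusted p was 0.0583 to 0.0619 in the edgeR fits with no filter or with muscle kept. The members of these lists, and of those that follow, were chosen with earlier results known, so their counts are descriptions. Over all genes tested, 2.70% were called in either direction, which stands beside the calls of each list.

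Hox proteins bind DNA with TALE cofactors, the Pbx, Meis and Pknox proteins. The cofactor gene Pbx3 had a log2 fold change of 1.13 ± 0.44 (adjusted p = 0.142, edgeR), with 43.7 and 45.9 CPM in translocation tumours 4 and 5 and 8.91 to 14.7 CPM in the other 9 tumours.

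Polycomb and trithorax group proteins keep Hox clusters silent or active. Of 22 genes of this chromatin list all were tested and none was called, beside 2.70% of all genes tested. Their median log2 fold change was 0.08. Kmt2a, which encodes the methyltransferase MLL1 needed to maintain Hox expression, had the lowest adjusted p of the list (0.103, edgeR) at -0.86 ± 0.29. Of 19 signals and factors upstream of Hox clusters, among them the retinoic acid enzymes, 14 were tested. None was called, beside the same 2.70%, and their median was -0.45. Aldh1a3, a retinoic acid synthesis enzyme, was at 1.75 to 15.2 CPM in translocation tumours and 22.9 to 64.3 CPM in Rosa26 tumours, without overlap, and missed the threshold at -2.36 ± 0.61 (adjusted p = 0.0585, edgeR).

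Other positional genes of limb, trunk and head gave 1 higher and 2 lower calls among 24 tested of 41, with a median log2 fold change of -0.43. Of all genes tested, 1.14% were called higher and 1.56% lower, with a median of 0.07. Tbx15, a T-box gene of limb and dorsal dermis, measured 41.4, 28, 34.2, 60.03 and 12.6 CPM in translocation tumours 1 to 5 and 108 to 185 CPM in Rosa26 tumours, with a median of 138. The groups did not overlap, and the log2 fold change was -1.94 ± 0.35 (adjusted p = 0.0201, edgeR). The call was lost without Rosa26 tumour 3 (adjusted p = 0.0629) or 6 (0.0588), and with related titles summed (0.0631), by edgeR.

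Shh, the signal that sets the thumb-to-little-finger axis of the limb, measured 0.192, 1.75, 16.4, 1.55 and 0.0929 CPM in translocation tumours 1 to 5. Rosa26 tumours had 83.9 to 366 CPM with a median of 214.8. The groups were far apart, with translocation tumour 3 the highest of its group. The log2 fold change was -5.61 ± 1.18 (adjusted p = 0.0331, edgeR) and moved to -8.01 without translocation tumour 3 (adjusted p = 0.0104). The call was lost without translocation tumour 1 (0.0619), 2 (0.0516) or 4 (0.0528) or Rosa26 tumour 3 (0.0856), 5 (0.0663) or 6 (0.0751), as adjusted p in edgeR. It was also lost with no filter (0.0721), with related titles summed (0.0751) and when Rosa26 tumour 4 was left out along with translocation tumours 2 and 5 (0.0619), again by edgeR.

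Foxf1, a gene of gut and lateral plate mesenchyme, was the one called higher. It measured 37.7, 29.8, 3.17, 0.570 and 19.2 CPM in translocation tumours 1 to 5 and 0.694 to 2.25 CPM in Rosa26 tumours, with a median of 1.21. Translocation tumour 4 lay below all Rosa26 tumours, so the groups overlapped. The log2 fold change was 3.86 ± 0.85 (adjusted p = 0.0379, edgeR), and the call held in 4 of the 11 fits that left out a tumour, those without translocation tumour 3, 4 or 5 or Rosa26 tumour 1. The highest adjusted p of those fits, 0.112 in edgeR, came without Rosa26 tumour 3. The call was also lost with related titles summed (adjusted p = 0.0887) and when Rosa26 tumour 4 was left out along with translocation tumours 2 and 5 (0.106), both in edgeR. With limma voom and quality weights the log2 fold change was 1.63 (adjusted p = 0.254).

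The T-box and paired-type genes that mark the fore- and hindlimb were looked at after their values were seen. Tbx4, of the hindlimb, stayed under 1 CPM in every tumour, and the filter removed it from the test. It measured 0.480, 0, 0, 0 and 0.186 CPM in translocation tumours 1 to 5. In Rosa26 tumours it ran from 0 to 0.874 CPM, and muscle held 4.00 CPM. Tbx5, of the forelimb, measured 20.4, 15.3, 0.0812, 11.7 and 12.04 CPM in translocation tumours 1 to 5 and 0.0766 to 3.67 CPM in Rosa26 tumours, with an adjusted p of 0.133 in edgeR. Pitx1, of the hindlimb, measured 9.01, 53.0, 0.0406, 19.8 and 0 CPM in translocation tumours 1 to 5 and 15.1 to 109 CPM in Rosa26 tumours, with an adjusted p of 0.435 in edgeR. At 1 CPM or more, translocation tumours 1, 2 and 4 held both Tbx5 and Pitx1, and translocation tumour 5 held Tbx5 alone. Translocation tumour 3 held neither, with 2 counts of Tbx5 and 1 of Pitx1. Rosa26 tumours 1, 3, 4 and 6 also held both, and Rosa26 tumours 2 and 5 held Pitx1 alone. Prrx1, of limb mesenchyme, was at 2.46 CPM in translocation tumour 5 and at 127 to 479 CPM in the other 10 tumours, translocation tumour 3 having the highest value.

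**Figure D5:**
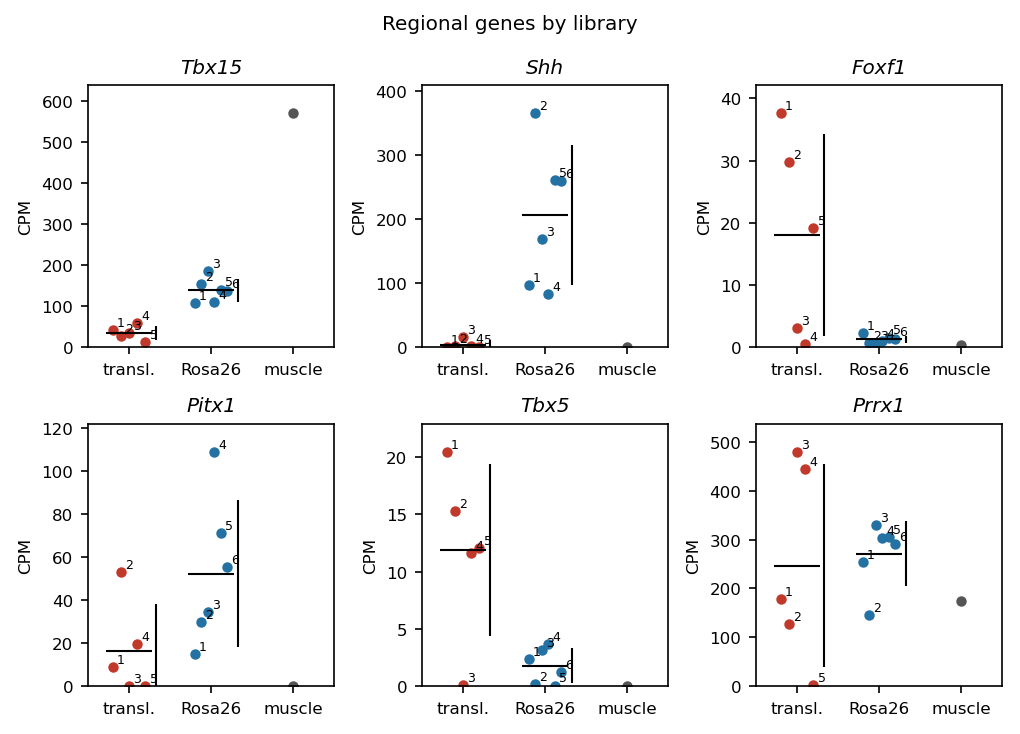
Level in TMM-scaled CPM (vertical axis) of Tbx15, Shh, Foxf1, Pitx1, Tbx5 and Prrx1 in each translocation tumour, Rosa26 tumour and the muscle library, numbered by replicate, with group means (horizontal lines) and SD (vertical lines, stopped at 0). Tbx15 and Shh show no overlap between the tumour groups, and Foxf1, Pitx1, Tbx5 and Prrx1 overlap.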

How the data were processed

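RNA was measured in 12 samples. Ribosomal RNA was removed before a stranded library preparation (Illumina), per the labels' protocols. The authors deposited raw counts per Ensembl gene, 1 column per sample, as the file's whole numbers show. Build mm10 and the tools featureCounts, STAR 2.7.5a, cutadapt, DESeq2 and RSEM are named in the submitters' processing notes, with no role or order. Not given in the sources used here are the annotation release, the strand setting and how reads matching more than 1 place were treated. Overlapping, antisense and paralogous genes may therefore share reads.

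Symbols, types and exon lengths came from GENCODE M21, and all 55536 identifiers matched. Groups follow the genotype in the labels. Tumours of both genotypes were compared with robust quasi-likelihood tests in edgeR 4.0.16 (R 4.3.3), muscle left out, after filterByExpr (minimum count 10) and TMM scaling. P-values were adjusted by Benjamini-Hochberg over all genes tested and called at 0.05. It was checked on simulated counts. Fold changes are translocation over Rosa26. Levels are CPM scaled by TMM over 12 libraries, and a level per kilobase divides by merged exon length. Detection was set at 1 CPM, with a floor of 3 counts, and counting intervals are at 95%. Those of a ratio pool the reads of each group and leave out the spread between tumours. Promoters came from RefSeq on GRCm38.p6, and no sequence was used for genes without an entry.

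Named genes were every called Hox gene, the gene with the highest level per kilobase in each cluster, genes with 1 tumour at 5 CPM or more and 10 times its group's median, Hoxc8 to Hoxc13, the group 13 genes, and called or leading genes of the other lists. Hoxa11, Tbx4, Tbx5, Pitx1, Prrx1, Evx1 and Evx2 and other Hox genes given by value were added after their values were seen. The members and lists were chosen with earlier results of these data known. Alternatives were the Wald test and the size factors of DESeq2 1.42.0, voom with quality weights from limma 3.58.1, other filters, muscle kept in the fit, libraries with related titles summed, other detection levels, other ways to form a share, and each tumour left out in turn. A Hox gene and a gene of another list are not reported here singly, though the former stays in sums and counts over the family.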

Additional observations from a re-analysis of the deposited data

Results flagged for a closer look

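In a check of 57 sets of values within a genotype for a single sample far from the nearest of the others, 10 stood out. The nominal rate of about 1 in 20 by chance holds only for normally distributed values. Many of the levels here are low and unevenly spread, and the sets come from the same libraries. The 10 therefore cannot be compared with that rate and are listed as descriptions. Translocation tumour 4 stood apart from the other translocation tumours in Hoxb5 and Hoxb7, each at 4.71 CPM, in Hoxd3 at 1.55 CPM and in Hoxd4 at 6.78 CPM. Hoxd3 and Hoxd4 share exon bases, so these 2 are not separate observations. Translocation tumour 5 stood apart in Hoxd13 at 51.9 CPM and in Hoxd11 at 1.77 CPM. Translocation tumour 2, the shallowest library, stood apart in Hoxc6 at 82.3 CPM, on 188 counts. Rosa26 tumour 3 stood apart in Hoxa11 at 9.72 CPM. Rosa26 tumour 4, the shallowest of its group, stood apart in Hoxc9 at 20.5 CPM and in the summed level of the 39 Hox genes at 259 CPM.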

How the results depend on the processing

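No paired analysis was possible because the tumour groups compared share no leading number in their titles, and the replicate numbers used here follow the order of the samples. Over all genes, 460 calls became 2439 with the DESeq2 Wald test, 2677 with limma voom with quality weights and 141 with related titles summed, and 63 to 744 when each tumour was left out in turn. Leaving out translocation tumour 1 gave 112 and tumour 5 gave 744. Leaving out Rosa26 tumours 3 to 6 gave 63, 262, 123 and 75. The 1 Hox call became 3 with no filter and 3 with muscle kept in the fit, by the addition of Hoxa11 and Hoxc13, and 1 to 2 when a tumour was left out. Hoxc11 was called in every fit. The median Hox log2 fold change of -0.08 was -1.41 with voom, and -0.54 to 0.31 when a tumour was left out, so its sign is not settled. Hoxb7 turned from 1.15 to -0.89 without translocation tumour 4 (-0.89 to 1.46 over the tumours left out). With counts not divided by length, or log2(CPM per kb + 1) summed, the posterior share in muscle was 58.1% or 53.7%, and its cluster shares were 20.2% or 33.02% for Hoxa, 0.867% or 3.15% for Hoxb, 43.7% or 39.2% for Hoxc and 35.2% or 24.7% for Hoxd. With log2 levels summed the median Hoxb share was 16.3% in translocation and 5.47% in Rosa26 tumours. Detected Hox genes in muscle numbered 19 at 0.5 CPM and 15 at 2 CPM. The median limit of Hoxa in Rosa26 tumours was 10 at 2 CPM, that of Hoxb in translocation tumours 0 (none detected) at 2 CPM, and that of Hoxb in Rosa26 tumours 7 at 0.5 CPM. The cause was not tested for these changes. Shares within a library do not depend on scaling, so that alternative was not run. At 2963088 counts, a 0 in translocation tumour 2 allows up to 1.31 CPM, and its Hox values under about 1 CPM rest on 1 or 2 counts.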
